A study of Arabidopsis thaliana with 38 samples.

Results

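NAC proteins are a family of plant transcription factors that share a conserved DNA-binding domain, named after the petunia *NO APICAL MERISTEM*, the Arabidopsis *ATAF* and the *CUP-SHAPED COTYLEDON* genes. The 98 members described here are the genes, of 26925 in the globular-seed and 24HAI endosperm data, whose deposited annotation names a NAC domain, No Apical Meristem or NAC-like protein. That wording matched 104 genes, and 6 NAC genes of leaf senescence were left out by name. It missed some known NAC genes of the role lists used below: *VND1*, *VND4*, *VND6*, *VND7*, *NTL8*, *NTM1*, *NTL9*, *ANAC014* and *TIP*. These are in the data but are not members, so counts and sums of the family and its role groups leave them out. The rule uses annotation wording and gene names and no measured value, but it was set with earlier results of these data known.

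NAC proteins bind DNA through the N-terminal domain, most often at sites with the core CACG, and activate or repress transcription through a variable C-terminal part. Some carry a membrane anchor and reach the nucleus only after they are cut free under stress. In seeds, *NARS1* and *NARS2* act in the integuments that become the seed coat, the *CUC* genes mark organ boundaries of the embryo, and *NAC25* and *NAC1L* act in the endosperm cells that loosen before the root emerges. *ANAC060* acts in sugar and abscisic acid (ABA) responses at germination, and the ATAF and RD26 groups act in ABA, jasmonate and drought responses.

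RNA-seq compared Col-0, the wild type, with *vel3-1*, a T-DNA mutant of *VEL3* in that background. VEL3 is a relative of the VIN3 vernalization proteins. Whole seeds with a globular-stage embryo, mature endosperm, and endosperm after 24 h of imbibition in water (24HAI) were read in 3 libraries per genotype and stage, each from pooled plants. In the paper the mature endosperm also came from imbibed seeds, after a far shorter time than 24 h. The endosperm is the tissue that surrounds the embryo, and at the globular stage the sample also holds seed coat and embryo. Values are TPM, reads per gene scaled by gene length and library, and SE is the standard error of a log2 difference. They carry no counts, so the depth behind a value is unknown and no counting interval is given. The libraries of a genotype are replicates of the study, and their spread is the error used throughout. The numbers of the globular libraries are names only and pair nothing.

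*VEL3* (AT2G18870) was read first. In globular seeds its TPM was 1.34, 1.99 and 2.23 in Col-0 and 9.79, 8.30 and 13.0 in the *vel3-1*-labelled libraries, a log2 difference of 1.99 (SE 0.46, limma adjusted p = 0.000759). The level therefore went against the label, and TPM do not show whether the reads come from an intact transcript. The p-values of this fit gave no weight to a gene's own spread, as set out below. The 13.0 TPM came from replicate 3, whose background is given below, and no fit of *VEL3* without it is given. Replicates 1 and 2 also lay above Col-0. In 24HAI endosperm *VEL3* was listed at 0 in all 3 Col-0 libraries and at 0, 0.0770 and 0.160 TPM in the others, which checks nothing. All directions below are those of the *vel3-1*-labelled libraries. Replicate 3 of these in globular seeds stood apart. Across 4212 nuclear genes listed at 0 in every 24HAI library, its median was 10.0 TPM, against 0.317 to 1.43 TPM in the other 5 globular libraries. Replicate 1 held the 1.43 TPM.

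Members followed that library. Of the 57 members with a Col-0 mean under 1 TPM in globular seeds, replicate 3 of *vel3-1* read 2.46 to 13.7 TPM with a median of 8.88, while the other 5 libraries read 0 to 2.32 TPM with a median of 0.444. It was the highest of the 6 globular libraries for 85 of the 98 members. All 98 passed the filter of a mean of at least 1 TPM with it, and 40 without it. Counts over all 98 members in globular seeds therefore rest in part on this library, and they are given below as description only. Several globular differences are given with and without this library.

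**Figure D1:**
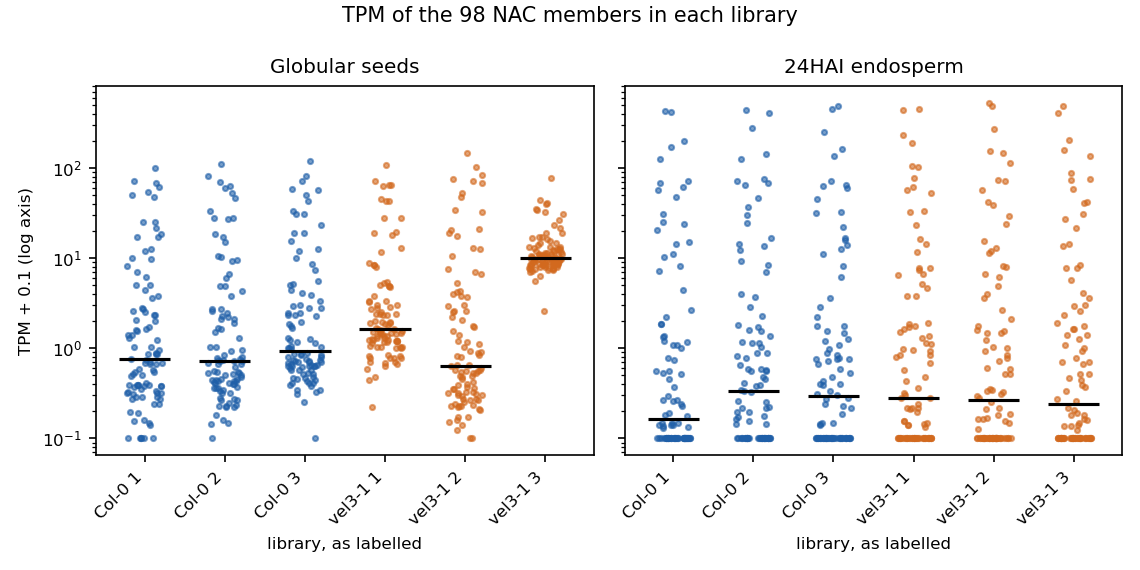
TPM of the 98 members in each library of globular seeds (left) and 24HAI endosperm (right), on a log axis with 0.1 added; each point is a member and each black line the library's median. Replicate 3 of the globular *vel3-1*-labelled libraries has a median of 9.89 TPM, and the other 5 globular libraries have medians of 0.539 to 1.52 TPM.

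The family was expressed unevenly in Col-0. In globular seeds 41 members had a Col-0 mean of at least 1 TPM, and in 24HAI endosperm 32 did. Of these, 24 were above 1 TPM at both stages, 17 in globular seeds alone and 8 in 24HAI endosperm alone, and 49 were below it at both. The stages were normalized separately and differ in tissue, so levels are set side by side here without a test. The 5 highest members held 72.4% to 74.7% of the summed TPM of the family in the 24HAI Col-0 libraries and 48.5% to 50.0% in the globular Col-0 libraries. In 24HAI endosperm 28 members were listed at 0 in all 6 libraries.

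**Figure D2:**
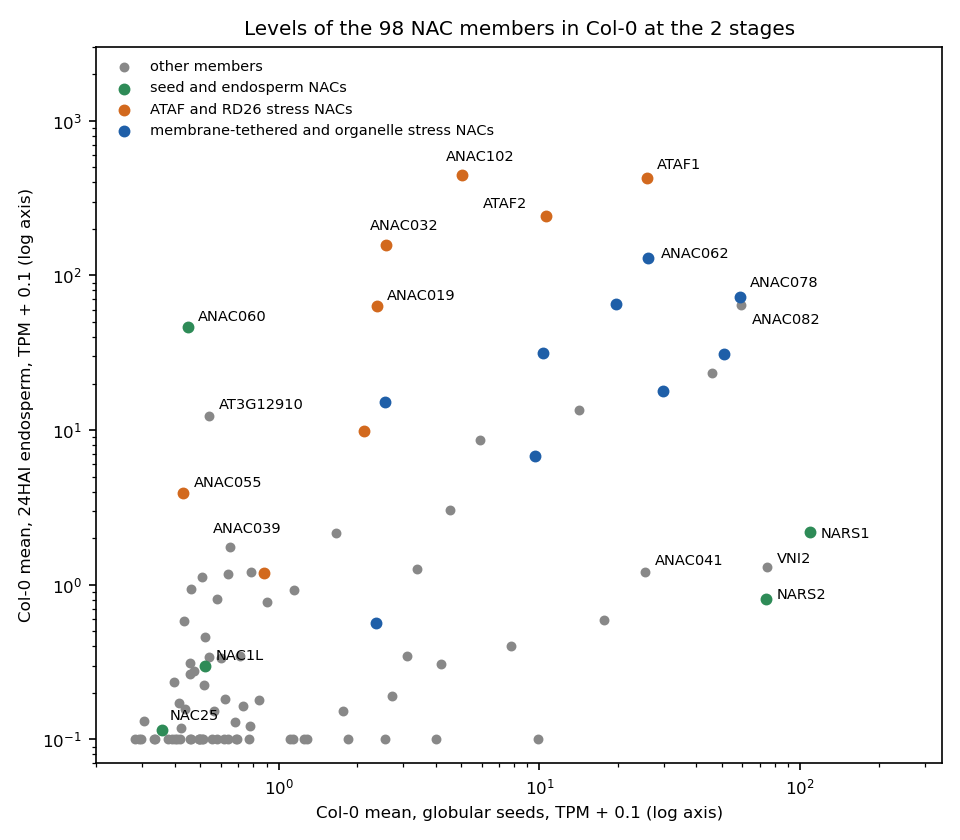
Col-0 mean TPM of each of the 98 members in globular seeds (horizontal) and 24HAI endosperm (vertical), both on log axes with 0.1 added, each point a member and the colours 3 role groups. *NARS1*, *VNI2* and *NARS2* lie at the lower right, at 73.9 to 109 TPM in globular seeds and 0.713 to 2.11 TPM in 24HAI endosperm, and *ANAC102* and *ATAF1* at the top, at 445 and 428 TPM in 24HAI endosperm.

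In globular Col-0 seeds the highest member was *NARS1* (AT3G15510), at 99.8, 109 and 118 TPM. *VNI2* (AT5G13180), which binds the vessel regulator VND7 and represses its targets, followed at 68.8, 81.5 and 72.3 TPM. *NARS2* (AT1G52880), which acts redundantly with *NARS1* in the seed coat, stood at 71.5, 69.6 and 80.5 TPM, overlapping *VNI2*. *NARS1* lay above both in every Col-0 library. *ANAC082* (AT5G09330), of the nucleolar stress response, read 60.6, 60.2 and 57.5 TPM. *ANAC078* (AT5G04410), of the response to proteasome stress, read 54.6, 63.3 and 57.7 TPM and overlapped *ANAC082*. *ANAC017* (AT1G34190), a regulator of mitochondrial retrograde signalling, came next at 49.6, 52.8 and 50.5 TPM, below the range of *ANAC078*.

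In 24HAI Col-0 endosperm the order was led by the ATAF group. *ANAC102* (AT5G63790), known for germination under low oxygen, read 412, 441 and 481 TPM. *ATAF1* (AT1G01720), an ABA-responsive regulator, read 430, 405 and 450 TPM, overlapping *ANAC102*. *ATAF2* (AT5G08790), of wounding and pathogen responses, read 197, 277 and 252 TPM, below both. *ANAC032* (AT1G77450), of stress and sugar responses, read 172, 142 and 160 TPM, below the range of *ATAF2*. *ANAC062* (AT3G49530), a membrane-tethered factor of cold and endoplasmic reticulum stress, read 127, 127 and 135 TPM, below *ANAC032*. The genotypes overlapped for *ANAC102*, *ATAF1*, *ATAF2* and *ANAC032*, whose log2 differences lay between -0.28 and 0.18.

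*ANAC060* (AT3G44290) was low at one stage and high at the other. It read 0.184, 0.346 and 0.513 TPM in globular Col-0 seeds and 47.8, 46.1 and 44.8 TPM in 24HAI Col-0 endosperm. *ANAC097* (AT5G50820) had the reverse, at 12.4, 9.46 and 7.36 TPM in globular Col-0 seeds and at 0 in every 24HAI library. *ANAC041* (AT2G33480) fell between, at 25.0, 27.3 and 23.5 TPM in globular Col-0 seeds and 1.25, 1.44 and 0.663 TPM in 24HAI Col-0 endosperm. *ANAC060*, *ANAC097* and *ANAC041* were picked for this paragraph after their values were seen.

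Some members that lie next to each other were unlike in level. With another member within 10 kb counted as a neighbour, in the TAIR10.1 annotation, 28 members formed 10 neighbourhoods. Of the 28, 11 were listed at 0 in every 24HAI library, and of the other 70 members 17 were. *NARS2* and *ANAC019* lie 6334 bp apart on chromosome 1, on the same strand. *NARS1* and *ANAC055* lie 7236 bp apart on chromosome 3, also on the same strand. In both pairs the *NARS* gene was the higher of the pair in all 3 globular Col-0 libraries and the ABA- and jasmonate-responsive gene was the higher in all 3 24HAI Col-0 libraries. *ANAC019* read 1.98, 2.15 and 2.72 TPM in globular Col-0 seeds and 57.01, 71.5 and 60.4 TPM in 24HAI Col-0 endosperm. *NARS2* read 0.672, 0.730 and 0.737 TPM in 24HAI Col-0 endosperm. *ANAC055* read 0.268, 0.410 and 0.317 TPM in globular Col-0 seeds and 4.37, 3.58 and 3.51 TPM in 24HAI Col-0 endosperm, where *NARS1* read 2.58, 1.63 and 2.11 TPM.

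The largest neighbourhood, of 5 members, spans 20527 bp of chromosome 1 from *ANAC023* (AT1G60280) to AT1G60380. All 5 were listed at 0 in every 24HAI library and had Col-0 means of 0.278 to 0.456 TPM in globular seeds. *ANAC050*, *ANAC052* and *ANAC053* lie 130 and 15 bp apart on chromosome 3 and were all expressed at both stages, with Col-0 means of 10.2 to 45.9 TPM in globular seeds and 13.3 to 31.5 TPM in 24HAI endosperm. Adjacent copies such as *ANAC050* and *ANAC052*, which act with the histone demethylase JMJ14, are similar in sequence. How reads shared by such copies were counted was not given in the sources used here, so their separate levels are uncertain.

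**Figure D3:**
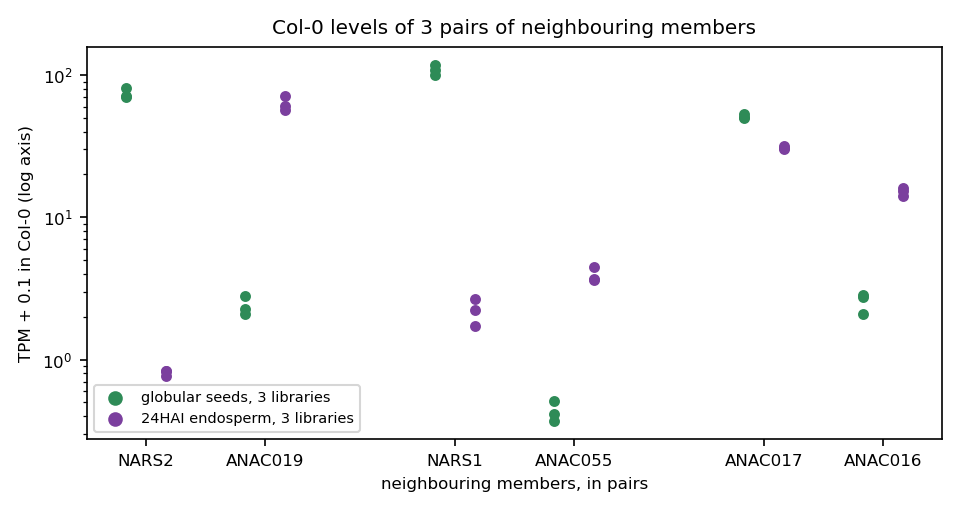
Col-0 TPM in each of 3 libraries of globular seeds (green) and 24HAI endosperm (purple) for 3 pairs of neighbouring members, on a log axis with 0.1 added. In the *NARS2* and *ANAC019* pair and the *NARS1* and *ANAC055* pair the order of the genes turns between the stages, whereas *ANAC017* lies above *ANAC016* at both.

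In 24HAI endosperm the *vel3-1*-labelled libraries held more *ANAC039* and *VNI2* and less AT3G12910 than Col-0, and more *ANAC019* and *ANAC055* at a smaller size. Of the 98 members, 31 passed the filter of a mean of at least 1 TPM. Log2(TPM + 1) was compared by limma over all 15918 genes that passed, and calls needed a Benjamini-Hochberg adjusted p under 0.05 together with a difference of at least 2-fold. 2 members were higher, where 1.7% of all tested genes were, and 1 was lower, where 0.697% were. At the adjusted p alone 4 members were higher, against 4.66% of tested genes, and 1 was lower, against 2.94%. The median log2 difference of the 31 members was 0.05, and that of all tested genes was 0.00 to 2 decimals (-0.00238). Fewer expressing cells and less RNA per cell cannot be told apart in these bulk samples.

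*ANAC039* (AT2G24430, also named NAC038) read 1.77, 1.50 and 1.67 TPM in Col-0 against 6.31, 4.82 and 4.0 TPM in the *vel3-1*-labelled libraries. The genotypes did not overlap. The means were 1.65 ± 0.14 and 5.04 ± 1.17 TPM (SD, n = 3), a ratio of 3.06. Its log2 difference on the TPM + 1 scale, which understates the change of low genes, was 1.18 (SE 0.16, limma adjusted p = 0.0044). The difference was called without each of the 6 libraries in turn, with log2 differences of 1.03 to 1.30.

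*VNI2* read 1.10, 1.72 and 0.792 TPM in Col-0 against 5.06, 3.53 and 2.52 TPM in the *vel3-1*-labelled libraries, again with no overlap. The means were 1.20 ± 0.47 and 3.70 ± 1.28 TPM (SD, n = 3), a ratio of 3.08, and the log2 difference was 1.08 (SE 0.23, limma adjusted p = 0.0283). This call was less firm. Without Col-0 replicate 1 the adjusted p was 0.0524, without Col-0 replicate 3 it was 0.125, without *vel3-1* replicate 1 it was 0.102 and without *vel3-1* replicate 2 it was 0.107. In globular seeds, where *VNI2* was among the highest members, the *vel3-1*-labelled libraries read 71.1, 103 and 32.5 TPM and overlapped Col-0.

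AT3G12910, a member without a named role, read 10.97, 12.3 and 13.7 TPM in Col-0 against 4.51, 6.57 and 3.54 TPM in the *vel3-1*-labelled libraries. The genotypes did not overlap. The means were 12.3 ± 1.4 and 4.87 ± 1.55 TPM (SD, n = 3), and the log2 difference was -1.21 (SE 0.19, limma adjusted p = 0.00695). It was called without each library in turn, at -1.41 to -1.04. When all listed genes entered the fit with no filter, none of the 3 passed, at limma adjusted p values of 0.0532 for *ANAC039*, 0.0861 for AT3G12910 and 0.153 for *VNI2*. With a filter of 5 TPM only AT3G12910 of them was tested, and it passed.

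*ANAC019* and *ANAC055*, near relatives of *RD26* in ABA and jasmonate signalling, passed the adjusted p but not the fold. *ANAC019* read 103, 113 and 88.2 TPM in the *vel3-1*-labelled libraries, all above the Col-0 values given above, and its log2 difference was 0.68 (SE 0.12, limma adjusted p = 0.0133). *ANAC055* read 7.74, 7.84 and 5.59 TPM, also all above Col-0, with a log2 difference of 0.73 (SE 0.15, limma adjusted p = 0.024). *RD26* (AT4G27410) itself read 10.05, 8.21 and 10.9 TPM in Col-0 against 6.50, 11.9 and 8.31 TPM in the other libraries, which overlapped. Leaving out each library in turn gave a limma adjusted p of 0.00154 to 0.073 for *ANAC019* and of 0.0186 to 0.112 for *ANAC055*, and with no filter on low values these were 0.0979 and 0.117.

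**Figure D4:**
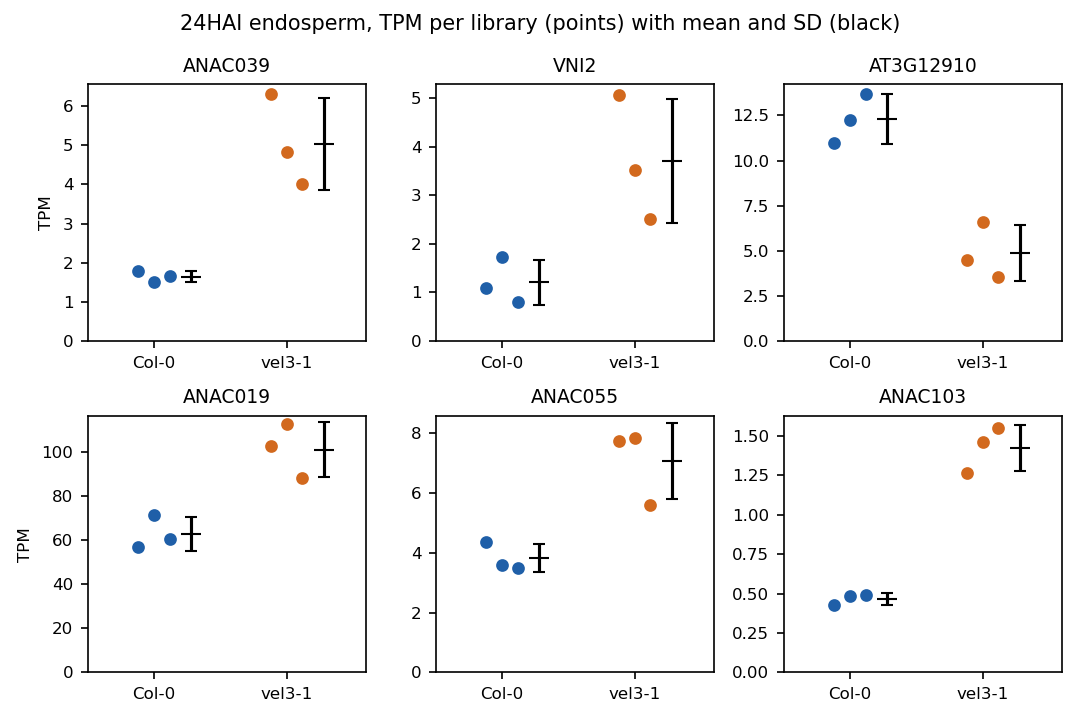
TPM in each 24HAI endosperm library (points, 3 per genotype, as labelled) with the mean and SD (black) for 6 members, each panel with its own axis from 0. *ANAC039*, *VNI2*, *ANAC019*, *ANAC055* and *ANAC103* lie higher in the *vel3-1*-labelled libraries and AT3G12910 lower, with no overlap in any panel; *ANAC103* did not pass the filter on low values.

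The sequence before the start of 4 of these members is shown because CACG is the core of the site that NAC proteins bind. Each run is the 250 bases before the annotated gene start in TAIR10.1 (RefSeq), 5′ to 3′ on the gene's strand. Capitals mark CACG or its reverse complement CGTG. *ANAC019* is at chr1:19698483-19698732 (minus strand), *ANAC055* at chr3:5234207-5234456 (plus), *ANAC039* at chr2:10386626-10386875 (minus) and AT3G12910 at chr3:4109125-4109374 (plus).
ANAC019: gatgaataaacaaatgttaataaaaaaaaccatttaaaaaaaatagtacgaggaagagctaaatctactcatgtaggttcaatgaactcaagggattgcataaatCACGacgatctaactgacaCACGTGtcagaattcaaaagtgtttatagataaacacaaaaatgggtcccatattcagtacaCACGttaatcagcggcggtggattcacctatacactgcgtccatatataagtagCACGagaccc
ANAC055: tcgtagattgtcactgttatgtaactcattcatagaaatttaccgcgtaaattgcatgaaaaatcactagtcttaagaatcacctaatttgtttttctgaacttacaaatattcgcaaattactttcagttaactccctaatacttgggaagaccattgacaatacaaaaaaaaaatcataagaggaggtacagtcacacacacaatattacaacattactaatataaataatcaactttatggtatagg
ANAC039: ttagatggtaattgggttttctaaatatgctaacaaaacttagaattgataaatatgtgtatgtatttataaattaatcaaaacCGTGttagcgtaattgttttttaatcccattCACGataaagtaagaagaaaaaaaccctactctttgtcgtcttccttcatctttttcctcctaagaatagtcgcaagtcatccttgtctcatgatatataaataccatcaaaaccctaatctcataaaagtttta
AT3G12910: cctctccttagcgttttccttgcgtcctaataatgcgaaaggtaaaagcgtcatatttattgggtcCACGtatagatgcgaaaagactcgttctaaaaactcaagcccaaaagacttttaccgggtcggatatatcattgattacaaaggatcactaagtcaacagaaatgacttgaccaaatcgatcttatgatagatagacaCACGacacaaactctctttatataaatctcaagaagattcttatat
The window of *ANAC019* holds 5 matches over both strands, of which a pair overlaps in CACGTG, and that of *ANAC055* holds 0. The windows of *ANAC039* and AT3G12910 hold 2 matches each. The window of *ANAC039* also holds 2 matches to AAACCCT, the core of the telobox. The window of *VNI2* lies inside another annotated gene and is not shown.

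Matches of this kind are common. All motifs were searched on both strands. CACG was in 45.7% of the 26714 windows of the same length over all genes and in 53.1% of the 98 members' windows. AAACCCT was in 7.27% of all windows and in 9.18% of the members'. GAGAGA was in 20.4% and 24.5%, and CTCTG, the core of the REF6 demethylase site, in 24.8% and 19.4%. A match shows only that these letters are in the window.

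Several members had no overlap between the genotypes and did not reach the adjusted threshold. Among the 31 tested members, all 3 *vel3-1*-labelled libraries lay above all 3 Col-0 libraries for 9, where 12.5% of tested genes did so, and below them for 5, where 14.5% did. An exact permutation test of 3 against 3 cannot give a two-sided p below 0.1. *ANAC053* (AT3G10500), a membrane-tethered factor of the proteasome stress response, read 25.1, 37.2 and 32.3 TPM in Col-0 against 53.0, 41.9 and 42.1 TPM in the others (log2 difference 0.53, limma adjusted p = 0.0794). *ANAC062* read 189, 147 and 157 TPM in the *vel3-1*-labelled libraries, above the Col-0 values above (0.34, limma adjusted p = 0.100). *NARS1* read 3.67, 3.93 and 2.95 TPM against the Col-0 values above (0.54, limma adjusted p = 0.0888). *ANAC041* and *NAC001* were the others above Col-0, at 0.48 and 0.28 (limma adjusted p = 0.191 and 0.308).

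On the lower side, *ANAC084* (AT5G14000) read 2.14, 3.94 and 2.76 TPM in Col-0 against 1.63, 1.38 and 1.66 TPM in the *vel3-1*-labelled libraries (log2 difference -0.60, limma adjusted p = 0.0947). *ANAC060* read 33.6, 39.1 and 40.5 TPM, below its Col-0 range (-0.29, limma adjusted p = 0.111). *ANAC082* read 56.8, 56.8 and 58.9 TPM against 61.3, 68.0 and 63.1 TPM in Col-0 (-0.15, limma adjusted p = 0.305). *ANAC016* (AT1G34180), the neighbour of *ANAC017*, was 15.1, 14.1 and 15.8 TPM in Col-0 against 14.05, 13.0 and 14.1 TPM in the others (-0.12, limma adjusted p = 0.505). None of these 4 passed the test.

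**Figure D5:**
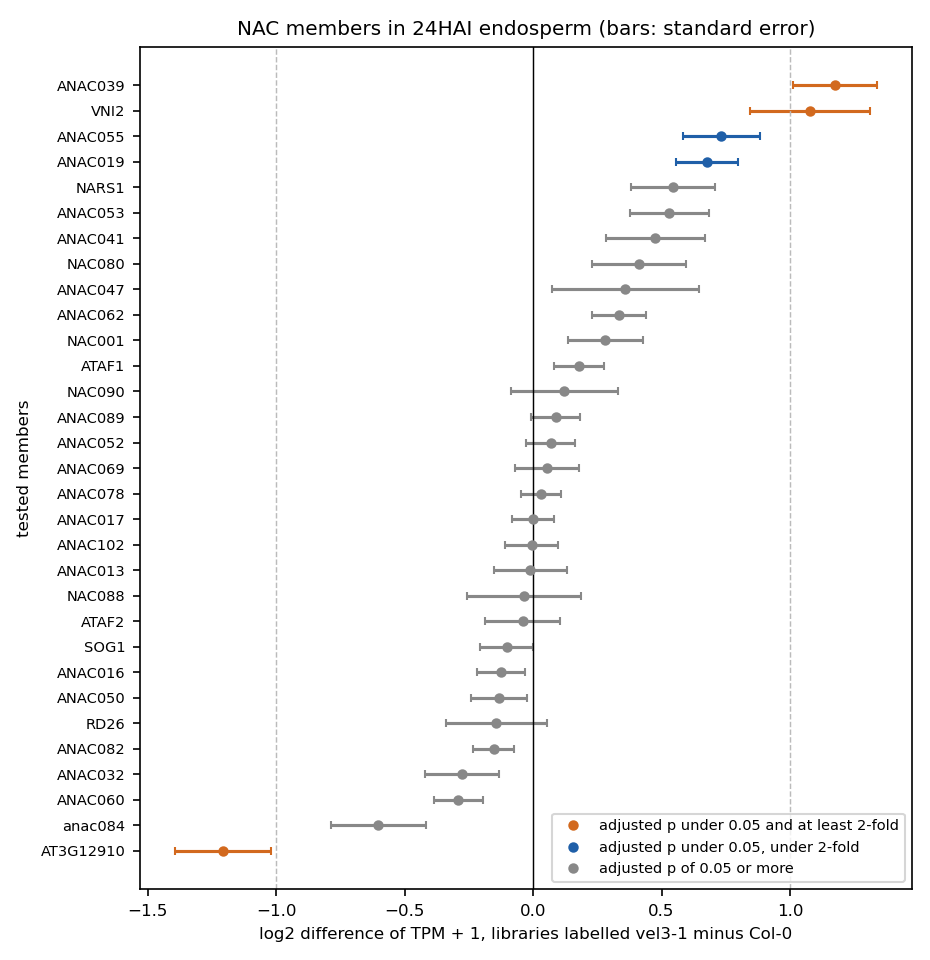
Log2 difference of TPM + 1 (*vel3-1*-labelled libraries minus Col-0) in 24HAI endosperm for the 31 tested members, with standard errors; dashed lines mark a 2-fold difference. *ANAC039* at 1.18, *VNI2* at 1.08 and AT3G12910 at -1.21 pass the adjusted p and the fold, *ANAC055* and *ANAC019* pass the adjusted p alone, and the other 26 pass neither.

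Of the 67 members below the filter, 7 had no overlap between the genotypes in 24HAI endosperm. The *vel3-1*-labelled libraries lay above Col-0 for 5 (7.46%), where 6.1% of all genes below the filter lay so. They lay below it for 2 (2.99%), where 2.88% did. Both shares were near those of all genes. The 7 were named after their values were seen. *ANAC103* (AT5G64060), a target of the unfolded protein response, read 0.425, 0.484 and 0.489 TPM in Col-0 against 1.26, 1.46 and 1.55 TPM in the others. *NAC003* (AT1G02220) read 0.359, 0.674 and 0.430 TPM against 1.42, 1.39 and 1.30 TPM. In the limma fit with no filter both passed the adjusted p, *ANAC103* at 0.0172 and *NAC003* at 0.0455, with log2 differences of 0.72 and 0.68, short of 2-fold. In that fit 197 of 26925 genes passed the adjusted p and the fold. The share of all genes past the adjusted p alone was not counted, so these passes have no background to be set against. The neighbour of *NAC003*, *ANAC004* (AT1G02230), read 0.159, 0.314 and 0.238 TPM against 0.591, 0.502 and 0.681 TPM. *NAC1L* (AT3G12977), an activator of the expansin *EXPA2* in the endosperm, read 0.0427, 0.464 and 0.0852 TPM against 1.02, 0.913 and 0.603 TPM. *SND3* (AT1G28470), of secondary walls, read 0.194, 0.230 and 0.658 TPM against 1.19, 0.942 and 0.821 TPM. The 2 lower members were *ANAC048*, at 0.273 to 1.08 TPM in Col-0 and 0.116 to 0.227 TPM in the others, and *ANAC067*, at 0.877 to 1.26 and 0.569 to 0.747 TPM.

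By role, the changes at 24HAI were few within each group. Of 8 ATAF and RD26 stress members, all tested, 0 passed the adjusted p and the fold, and their median log2 difference was 0.09, against -0.00238 for all tested genes. Of 9 membrane-tethered and organelle stress members, 8 were tested and 0 passed, with a median of 0.04. Of 10 secondary wall and xylem members, from a list of 14 genes, 1 was tested, *VNI2*, and 8 lay under 1 TPM in all 6 libraries. Of 5 seed and endosperm members, 2 were tested, *NARS1* and *ANAC060*, at log2 differences of 0.54 and -0.29, and neither passed. The 3 boundary members *CUC1*, *CUC2* and *CUC3* were under 1 TPM in every 24HAI library, and *NAC25* (AT1G61110) read 0 to 0.344 TPM. Of 4 root cap members 0 were tested. Of 4 DNA damage and nucleolar stress members 2 were tested and 0 passed, with a median of -0.13, and of 11 members with other known roles 2 were tested and 0 passed, with a median of -0.03. The other 44 members were in no role list. At the adjusted p alone, *ANAC019* and *ANAC055* were the members of the ATAF and RD26 group that passed. The unadjusted p was under 0.05 for 11 of the 31 tested members and for 21.8% of all tested genes.

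Genes known as targets of some members were read beside them. Of 4 targets of *ANAC017*, 2 were tested and 0 passed both criteria. *AOX1A* (AT3G22370), the alternative oxidase, read 8.57, 13.1 and 9.52 TPM in Col-0 against 23.7, 18.4 and 17.6 TPM in the *vel3-1*-labelled libraries, and *UPOX* (AT2G21640), a mitochondrial stress gene, read 3.88, 4.83 and 3.56 TPM against 5.69, 7.16 and 7.67 TPM. Both passed the limma adjusted p alone (0.0179 and 0.0408), with log2 differences of 0.88 and 0.62. *ANAC017* itself overlapped between the genotypes, at 30.8, 30.0 and 31.5 TPM in Col-0 against 32.3, 29.0 and 31.0 TPM in the others. Its relative *ANAC013*, which acts in the same response, also overlapped, at 16.4 to 20.3 and 15.5 to 21.4 TPM.

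*EXPA2* (AT5G05290), the target of *NAC25* and *NAC1L*, spread widely in 24HAI Col-0, at 67.6, 423 and 153 TPM, and read 412, 268 and 216 TPM in the *vel3-1*-labelled libraries, with overlap. *SOG1* (AT1G25580), the main regulator of the DNA damage response, read 8.17, 9.14 and 8.10 TPM in Col-0 against 7.57, 8.13 and 7.73 TPM in the others, with overlap. Of 7 *SOG1* targets 2 were tested. 1 of these, *TSO2* (AT3G27060), a ribonucleotide reductase subunit, was higher, at 3.91, 8.43 and 5.11 TPM in Col-0 against 22, 17.7 and 17.1 TPM in the others (log2 difference 1.59, SE 0.22, limma adjusted p = 0.00464). The other, the cell cycle inhibitor *SMR5* (AT1G07500), read 466, 297 and 392 TPM in Col-0 against 226, 311 and 313 TPM in the others, with overlap (log2 difference -0.43, limma adjusted p = 0.221). All 7 targets of the secondary wall and xylem members were under 1 TPM in every 24HAI library. Of the 6 senescence NAC genes left out, 4 were tested and 2 were higher, *ORE1* (AT5G39610) at a log2 difference of 1.89 and *ANAC087* (AT5G18270) at 1.37.

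Summed markers of the seed coat and embryo separated by genotype at 24HAI, and 0 single markers passed both criteria. At the limma adjusted p alone *WOX2*, an embryo marker, was lower, with a log2 difference of -0.72 (limma adjusted p = 0.00702), and *SBT1.7*, a seed coat marker, was higher, at 0.52 (limma adjusted p = 0.0366). The endosperm marker *EPR1* (AT2G27380) read 16076 to 20368 TPM over the 6 libraries. The summed level of 8 seed coat markers was 221 to 287 TPM in Col-0 and 332 to 398 TPM in the *vel3-1*-labelled libraries, nearly all of it from *SBT1.7*, and 4 of the 8 were under 1 TPM in all 6 libraries. That of 8 embryo markers was 68.7 to 83.7 TPM and 52.2 to 55.9 TPM, and 3 of these were under 1 TPM in all 6 libraries. *WOX2* alone read 31.9 to 41.0 TPM in Col-0 and 19.7 to 21.9 TPM in the others. In globular Col-0 seeds, which hold embryos, it read 0.540 to 1.69 TPM, and whether it tracks embryo content was not tested. Single markers went both ways. Of the seed coat markers 2 were higher without overlap and 1, *AHA10*, was lower. Of the embryo markers 3 were lower without overlap and 1, *STM*, was higher. The 7 young endosperm markers summed to 1.18 to 2.28 TPM and 1.53 to 2.6 TPM. The part of these tissues in the members' differences was not tested.

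In globular seeds no member passed both criteria, with or without replicate 3 of *vel3-1*. Over 6 libraries 2.08% of all 26593 tested genes passed them, and without that library 2.79% of 19639 did. The unadjusted p was under 0.05 for 3 of 98 members with it and for 11.3% of tested genes, and for 5 of 40 members and 18.6% of tested genes without it. The median log2 difference of the members was 0.92 with it and 0.10 without it, and that of all tested genes was 0.50 and 0.14. The members' median changed sign with the scaling, to -0.05 after quantile normalization, beside -0.02 for all genes. With the other form of limma, without the trend of variance on level, 0 members and 0 genes passed, and 3 members and 7.65% of tested genes had an unadjusted p under 0.05. With the trend, a gene's own spread had no weight in the p-values of the fit to 6 globular libraries, which came from the trend alone.

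*ANAC062* came nearest. It read 17.2, 27.4 and 33.5 TPM in globular Col-0 seeds and 42.5, 76.1 and 35.1 TPM in the *vel3-1*-labelled libraries. The genotypes did not overlap, but the lowest of the second group was close to the highest of the first. The log2 difference was 0.92 (SE 0.19, limma adjusted p = 6.8e-05), short of 2-fold, beside a median of 0.50 for all genes. It passed the fold without Col-0 replicate 3, at 1.12, and without *vel3-1* replicate 1, at 1.01. Without *vel3-1* replicate 3 it was 1.15 with a limma adjusted p of 0.0601, and without Col-0 replicate 1 it was 0.66 with a limma adjusted p of 0.173. The adjusted p was 0.5 for limma without the trend, 0.484 with no filter, 0.573 with median-ratio scaling, 0.658 with the background subtracted and 0.187 after quantile normalization.

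*ANAC102* read 4.96, 4.86 and 5.06 TPM in globular Col-0 seeds and 7.91, 7.39 and 13.3 TPM in the *vel3-1*-labelled libraries, with no overlap. Its log2 difference was 0.78 (SE 0.36, limma adjusted p = 0.353), and without replicate 3 it was 0.54 (SE 0.15, limma adjusted p = 0.0816). *ANAC050* (AT3G10480) read 11.9, 15.1 and 15.4 TPM in Col-0 against 19.0, 20.4 and 18.8 TPM in the others, also with no overlap, and its log2 difference was 0.44 with and 0.46 without replicate 3 (limma adjusted p = 0.453 and 0.148). *ANAC102*, *ANAC050* and *ANAC049* were picked for this part of the text after their values were seen. *ANAC049* (AT3G04430) read 2.42, 2.6 and 2.34 TPM in Col-0 against 1.11, 0.250 and 11.6 TPM in the others. Its replicates 1 and 2 lay below Col-0 and replicate 3 above it, so that the log2 difference was -0.10 with replicate 3 and -1.09 without it (limma adjusted p = 0.116).

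The lower members of globular seeds with no overlap were *ANAC041* and *NARS2*, among 98 members, where 3.93% of all listed genes had all 3 *vel3-1*-labelled libraries below Col-0. *ANAC041* read 19.4, 17.4 and 17.1 TPM in the *vel3-1*-labelled libraries, below the Col-0 values above, with a log2 difference of -0.47 (limma adjusted p = 0.308) and of -0.44 without replicate 3 (limma adjusted p = 0.138). *NARS2* read 64.1, 68.2 and 43.9 TPM, with a log2 difference of -0.35 (limma adjusted p = 0.485). *NARS1* read 107, 147 and 77.7 TPM and overlapped Col-0.

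On the higher side 10 members had no overlap, 10.2% of them, where 19.8% of all listed genes did so. The largest log2 differences among them were those of *ANAC005* (AT1G02250) at 1.51, *ANAC039* at 1.47 and *FEZ* (AT1G26870), a regulator of root cap divisions, at 1.44, with limma adjusted p values of 0.536, 0.528 and 0.548. The size of each difference was set by the library that stood apart, whereas replicates 1 and 2 also lay above Col-0. *ANAC005* read 0.409, 0.146 and 0.768 TPM in Col-0 against 1.43, 0.929 and 13.0 TPM in the others. *ANAC039* read 0.315, 0.631 and 0.702 TPM against 1.71, 1.46 and 10.7 TPM. *FEZ* read 0.231, 0.463 and 0.375 TPM against 1.78, 0.502 and 10.95 TPM. Without replicate 3 none of the 3 reached the mean of 1 TPM needed for the test.

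The boundary and endosperm members did not separate in globular seeds. *CUC1* (AT3G15170) read 2.23, 2.46 and 4.34 TPM in Col-0 against 3.27, 2.14 and 12.4 TPM in the *vel3-1*-labelled libraries. *CUC2* (AT5G53950) read 2.52, 2.10 and 3.22 TPM against 5.24, 2.85 and 10.4 TPM, and *CUC3* (AT1G76420) read 1.63, 1.6 and 1.75 TPM against 1.80, 1.11 and 8.87 TPM. *NAC25* read 0.412, 0.043 and 0.313 TPM against 1.44, 0 and 9.40 TPM. *NAC1L* read 0.929, 0.129 and 0.209 TPM against 0.586, 0.0746 and 9.55 TPM. *ANAC060* read 0.927, 0.167 and 9.99 TPM in the *vel3-1*-labelled libraries. Each of these 6 had its highest value in replicate 3.

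Markers of the tissues in the globular seed differed between the genotypes as well. Of 7 young endosperm markers, all tested, 3 were higher in the *vel3-1*-labelled libraries (*PHE1*, *AGL62* and *MINI3*), and without replicate 3 there were 3 higher and 2 lower. *FIS2* and *ZOU* lay below Col-0 in all 3 *vel3-1*-labelled libraries, at log2 differences of -0.995 and -0.993, short of 2-fold. Both passed the limma adjusted p alone, at 0.00218 and 0.0191. Over all libraries the summed level of the 7 was 86.0 to 107 TPM in Col-0 and 173 to 248 TPM in the others. *PHE1* alone read 20.0 to 27.5 TPM in Col-0 and 75.0 to 166 TPM in the others. The paper reports that gene as a paternally expressed gene upregulated in the mutant. Of 8 embryo markers 1 was lower, *LEC1*, at 40.0 to 78.1 TPM in Col-0 and 13.7 to 17.3 TPM in the others. The sum of the 8 was 181 to 202 TPM and 144 to 174 TPM. Apart from *LEC1* each embryo marker overlapped between the genotypes, so the sums do not show a lower level of the list as a whole. Of 8 seed coat markers 1 was higher, *MUM2*, and their sum was 2002 to 2086 TPM and 1226 to 2574 TPM. No marker of the 3 lists was at 0 in all 6 libraries. Their part in the members' values was not tested.

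The genotype effects at the 2 stages were compared by the interaction term of a limma fit to 12 libraries. Of 73 tested members 0 passed an adjusted p of 0.05, where 1.62% of all 24350 tested genes did, and 7 had an unadjusted p under 0.05, where 15.9% did. The largest differences, as the 24HAI effect minus the globular effect, were those of AT3G12910 at -2.48 (SE 0.73, limma adjusted p = 0.129), AT1G35890 at -1.74 (limma adjusted p = 0.365) and *FEZ* at -1.54 (limma adjusted p = 0.383). AT1G35890 and *FEZ* passed the filter only through replicate 3 of the globular *vel3-1*-labelled libraries, and without it neither was tested. AT3G12910 read 0.776, 0.298 and 0.242 TPM in globular Col-0 seeds and 2.3, 0.302 and 8.36 TPM in the *vel3-1*-labelled libraries. AT1G35890 was listed at 0 in all 24HAI libraries, and in globular seeds it read 0, 0 and 0.541 TPM in Col-0 against 2.22, 0.386 and 11.8 TPM in the others.

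Without replicate 3 of the globular *vel3-1*-labelled libraries, 2 of 39 tested members passed, where 7.36% of tested genes did. AT3G12910 stood at -1.75 (SE 0.45, limma adjusted p = 0.0364) and *ANAC041* at 0.91 (SE 0.23, limma adjusted p = 0.0364). *ANAC041* was the member whose genotypes separated in opposite directions and which passed here, lower in globular seeds and, at 1.52, 2.02 and 2.22 TPM, higher in 24HAI endosperm. Without replicate 2 of those libraries 8 of 82 tested members passed, where 15.0% of tested genes did, and the group then held replicates 1 and 3 alone. After quantile normalization 4 of 72 passed, where 4.55% of tested genes did, AT3G12910 as the lower one and *ANAC019*, *ANAC041* and *ANAC053* as the higher.

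In mature endosperm the data cover 640 genes and 2 members. *VND5* (AT1G62700), a vessel regulator, read 0, 0 and 0.0305 TPM in Col-0 against 0, 0.0570 and 0 TPM in the *vel3-1*-labelled libraries. *NAC088* (AT5G18300) read 0, 0 and 0.272 TPM against 0.137, 0.382 and 0 TPM. Both overlapped between the genotypes and no test was run at this stage. The other 96 members were not analysed there.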

How the data were processed

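RNA was measured in 18 libraries, 3 for each genotype at each of 3 stages. The authors trimmed reads with cutadapt (1.9.1), aligned them with STAR (2.5) to TAIR10, counted reads on the sense strand by featureCounts, and deposited TPM. How TPM were made from the counts was not given in the sources used here. The TPM of a library summed to 790391 to 892760 in globular seeds and to 979241 to 982037 in 24HAI endosperm. The authors' 20 ChIP-seq samples were not used. No value column was left without a group. The globular columns name a genotype and a number that could not be tied to single sample labels, so they were assigned to groups only.

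Log2(TPM + 1) was fitted, for genes whose mean over the libraries reached 1 TPM, with limma (3.58.1, R 4.3.3), with a trend of variance on level and Benjamini-Hochberg adjustment over all tested genes. A call needed an adjusted p under 0.05 and a 2-fold difference, or the adjusted p alone for the interaction. The fits of the genotype difference at the globular and 24HAI stages were checked on simulated data, and the interaction fit was not. A log2 change of 2 was set in 200 genes. In globular seeds 83.5% of these were called, with 2 other genes, and in 24HAI endosperm 99.0% were, with 3 others. Recovery of smaller changes, such as those of the called members, or of low genes alone was not tested. The genes named are members past the threshold, the 5 highest at each stage, the 3 largest differences in each direction without overlap, seed, endosperm and boundary members, members in the mature data and the 3 largest interaction values. Others are said to have been picked later. The members and lists were chosen with earlier results of these data known.

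Alternatives were a pseudocount of 0.1, no filter, a filter of 5 TPM, median-ratio scaling, quantile normalization, organelle genes left out, limma without the trend, a replicate block, subtraction of the median of genes listed at 0 in 24HAI endosperm, and leaving out each library. Promoter windows and distances came from the TAIR10.1 annotation, since the files carry no coordinates. All 98 members matched it. Protein sequences were not used here. Tables were handled with Python (3.11.15), pandas (2.3.3), numpy (2.4.6) and matplotlib (3.10.9).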

Additional observations from a re-analysis of the deposited data

Results flagged for a closer look

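*ANAC041* and *ANAC016* had genotypes that did not overlap at either stage and that separated in opposite directions at the 2 stages. In globular seeds the *vel3-1*-labelled libraries all lay above Col-0 for 19.8% of all listed genes and below for 3.93%. At 24HAI they did so for 12.5% and 14.5% of tested genes. The share of all genes with opposite separations was not counted, so the pattern is not read as particular to these members. *ANAC041* was lower in the *vel3-1*-labelled globular libraries, at 17.1 to 19.4 TPM against 23.5 to 27.3 TPM in Col-0, and higher in 24HAI endosperm, at 1.52 to 2.22 TPM against 0.663 to 1.44 TPM. The 24HAI effect minus the globular effect was 0.95 on the log2 scale (SE 0.26, limma adjusted p = 0.106), and without globular *vel3-1* replicate 3 it was 0.91 (SE 0.23, limma adjusted p = 0.0364). *ANAC016* was higher in the *vel3-1*-labelled globular libraries, at 3.27, 3.63 and 10.9 TPM against 2.0 to 2.73 TPM in Col-0, and lower in 24HAI endosperm, at 13.0 to 14.1 TPM against 14.1 to 15.8 TPM. The same difference was -0.97 (SE 0.43, limma adjusted p = 0.294), and without globular *vel3-1* replicate 3 it was -0.50 (SE 0.17, limma adjusted p = 0.107). With the background subtracted it was -0.04 (limma adjusted p = 0.972), and the globular log2 difference of *ANAC016* turned from 0.85 to -0.08, and to -0.09 after quantile normalization. That of *ANAC041* remained below 0 under both.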

How the results depend on the processing

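The 3 members called in 24HAI endosperm kept their direction in all alternatives in which they were tested. Many uncalled globular differences did not: the sign turned for 17 of 37 members with the background subtracted, 50 of 98 after quantile normalization, 8 of 97 with median-ratio scaling and 10 of 40 without *vel3-1* replicate 3. In 24HAI endosperm 0 of 31 turned with median-ratio scaling and 1 of 31 after quantile normalization. In 24HAI endosperm 3 members passed, 0 with no filter, 1 with a filter of 5 TPM, and 2 to 3 when a library was left out. In globular seeds 0 passed, and 0 to 1 when a library was left out (*ANAC062*, without Col-0 replicate 3 or *vel3-1* replicate 1). For the interaction 0 passed, 4 after quantile normalization, and 0 to 8 when a library was left out, 8 without globular *vel3-1* replicate 2 and 2 without replicate 3. Each globular median-ratio or quantile scaling moved the median of all genes from 0.50 to 0.10 or -0.02, and subtracting the background moved it to -0.21. Over all genes in globular seeds 552 passed, and 111 did with no filter, 257 after quantile normalization, 228 with the background subtracted, 897 without *vel3-1* replicate 2 and 0 for limma without the trend, where 2034 had an unadjusted p under 0.05. In 24HAI endosperm 382 passed, 70.9% of them higher, and 197 did with no filter, 204 with 5 TPM, 335 with organelle genes left out (81.2% higher), 591 without Col-0 replicate 2 and 245 without *vel3-1* replicate 1. For the interaction 394 passed, 34.0% of them higher, and 1095 did after quantile normalization (54.2% higher), 3764 without globular *vel3-1* replicate 2 and 1402 without replicate 3. The 24HAI replicate numbers did not pair the samples, with correlations of deviations of -0.39, 0.02 and 0.22, and a fit with the replicate block gave 3 members and 362 genes. No paired analysis was possible for globular seeds and the interaction because the numbers of the globular columns could not be tied to sample labels. The depth behind a TPM is unknown, and members under a mean of 1 TPM entered the test only where the filter was dropped or a left-out library raised the mean.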
